A study of Mus musculus with 8 samples.

Results

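Natural killer (NK) cells were the cells that the authors labelled as such in their annotation of all cells from mouse left lung grafts, and they numbered 1011 of 20778 cells in the series (4.87%), all in 1 cluster. They came from 8 male mice, each with 1 graft and 1 library, taken 1 month after orthotopic left lung transplantation (LTx) without immunosuppression. In the 5 mice of the B6→B6 group (533 NK cells) both donor and recipient were C57BL/6 (B6). In the 3 mice of the HLA→B6 group (478 NK cells) the donor lung carried the human HLA-A2 transgene, Tg(HLA-A2.1)1Enge, on the C57BL/6 background, and the recipient was B6. The counts do not tell NK cells of the donor lung from those of the recipient. Where 5 and then 3 values are given for a measure, they stand in the order of the replicates, B6→B6 first. T cells (5071) were the comparison type, and B cells (2286) gave the background for shares of cells with a transcript.

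NK cells are innate lymphocytes that kill target cells without a rearranged antigen receptor. Activating receptors such as NKp46 (Ncr1), NK1.1 (Klrb1c) and NKG2D (Klrk1) are set against inhibitory receptors that bind MHC class I, in mice chiefly the Ly49 receptors of the Klra genes and the CD94-NKG2A pair (Klrd1, Klrc1). An activated NK cell releases perforin (Prf1) and granzymes (Gzma, Gzmb) from its granules and secretes IFN-γ and the chemokines CCL3, CCL4, CCL5 and XCL1, and lungs hold many circulating, mature NK cells.

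The cells under the authors' label are described here by 3 marker genes. The 250 bases before the RefSeq start of each are shown as the regulatory sequence next to the markers (build GRCm38.p6, each 5′ to 3′ on the strand of the gene). Capitals mark the core letters TGTGGT, or ACCACA on the other strand, that Runx transcription factors bind. Ncr1 spans chr7:4337724-4345164 on the plus strand, and its first of 2 listed promoters is chr7:4337465-4337714. Klrb1c spans chr6:128778485-128789215 on the minus strand (promoter chr6:128788642-128788891), and Gzma spans chr13:113093825-113100981 on the minus strand (promoter chr13:113100982-113101231).
Ncr1: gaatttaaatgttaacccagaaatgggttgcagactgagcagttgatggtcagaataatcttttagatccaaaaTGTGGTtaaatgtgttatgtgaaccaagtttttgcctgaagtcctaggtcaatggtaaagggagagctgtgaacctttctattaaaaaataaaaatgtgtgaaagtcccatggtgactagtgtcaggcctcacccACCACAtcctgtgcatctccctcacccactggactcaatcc
Klrb1c: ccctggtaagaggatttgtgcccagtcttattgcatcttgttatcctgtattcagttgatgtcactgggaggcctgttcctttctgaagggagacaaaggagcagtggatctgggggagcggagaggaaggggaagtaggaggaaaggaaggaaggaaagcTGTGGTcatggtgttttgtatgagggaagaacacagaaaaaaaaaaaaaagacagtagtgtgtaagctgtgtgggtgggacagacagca
Gzma: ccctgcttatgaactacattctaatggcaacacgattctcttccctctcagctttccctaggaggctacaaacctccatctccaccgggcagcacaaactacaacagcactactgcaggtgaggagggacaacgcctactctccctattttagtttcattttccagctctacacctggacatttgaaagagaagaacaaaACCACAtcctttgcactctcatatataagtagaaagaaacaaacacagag
The first Runx match began 176 bases before the start in Ncr1, 89 in Klrb1c and 50 in Gzma. The same letters stood in 3832 of 27025 promoters of that length (14.2%), and in 3 of the 10 genes with a listed promoter among the 15 that stood highest in NK over T cells (Klrb1a, Ncr1 and Gzma). The T-box core GGTGTG, or CACACC, stood in 4365 promoters (16.2%) and in none of those 10. A match of 6 letters is a description of the sequence and not evidence of binding.

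Each mouse gave between 56 and 288 NK cells and between 103566 and 409732 UMIs (unique molecular identifiers, each counting 1 transcript molecule) in them, so levels were read from the sum over the NK cells of a mouse and are given as CPM, counts scaled to 1000000 UMIs of those cells. A sum cannot tell fewer cells with a transcript from less of it per cell. The median NK cell held 1484 UMIs, the median T cell 1648 and the median B cell 1597.5. An alternative left out 793 cells, 23 of them NK cells, for sharing a barcode with a cell of another library. No pair of NK cells shared a barcode. One library stood apart in its T cells, which matters wherever NK cells are set against them: Rag1, which cuts DNA in receptor rearrangement, was at 346 CPM in T cells of B6→B6 replicate 4 and at 0 in those of the other 7 mice. In the same T cells Dntt, the enzyme that adds bases at the joins, was at 453 CPM against 2.68 at most elsewhere (both genes were chosen after their values were seen). In NK cells of that mouse Rag1 was at 11.7 CPM and Dntt at 46.7, and both were at 0 in NK cells of the other 7 mice.

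The labelled cells held the markers. Since the labels were drawn from these same counts, the shares describe the cells and are no independent check. At 1000 UMIs per cell, a depth that 888 NK, 3906 T and 2010 B cells reached, 96.9% of NK cells had a UMI of Gzma, 71.5% of Klrb1c and 62% of Ncr1, against 2.25%, 2.82% and 0.722% of T cells and 0.404%, 0.202% and 0.127% of B cells. Without thinning the NK shares were 97.5%, 82.5% and 73.8%. All 3 markers were found in 617 NK cells (61.0%) and none in 5, whereas 4 T cells had all 3. The signalling adaptors Fcer1g and Tyrobp (DAP12), which carry signals for activating receptors, had a UMI in 97.4% and 96.6% of NK cells and in 3.88% and 2.03% of T cells. Eomes, a T-box factor of NK cells, was found in 30.5% of NK and 5.28% of T cells.

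**Figure D1:**
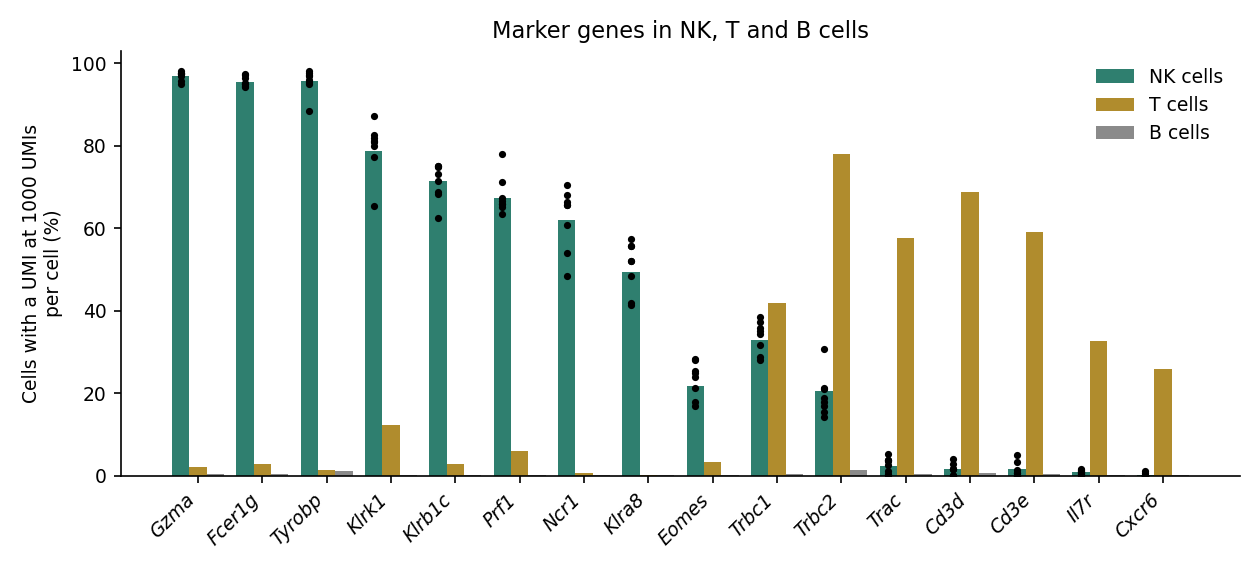
Percent of NK, T and B cells (bars, cells of all mice pooled) with at least 1 UMI of each gene after thinning every cell to 1000 UMIs, with NK cells of each of the 8 mice as points. Gzma, Fcer1g and Tyrobp were in nearly all NK cells, T cell receptor genes other than Trbc1 and Trbc2 in few, and Il7r and Cxcr6 in almost none.

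T cell receptor transcripts in NK cells differed by gene. Trbc1, a constant region of the T cell receptor β chain, had a UMI in 45.9% of NK cells and 51.9% of T cells, and Trbc2 in 26.6% and 87.8%. The genes that a surface receptor also needs were rare: Trac in 3.36%, Cd3d in 2.97%, Cd3e in 2.37% and Cd3g in 2.08% of NK cells, against 70.4%, 79.9%, 74.9% and 78.7% of T cells. A UMI of Trac, Cd3d, Cd3e or Cd3g was found in 69 NK cells, 46 from B6→B6 and 23 from HLA→B6 mice, with the highest share in B6→B6 replicate 4 (14.8% of its NK cells) and the lowest in HLA→B6 replicate 3 (1.79%). Among NK cells with a Trbc1 UMI, 2.59% had one of Cd3e, and among those without it 2.19%.

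Innate lymphoid cells of group 1 (ILC1), the tissue-resident relatives of NK cells, were not apparent under the label. Of the 5 markers Itga1, Cxcr6, Il7r, Tmem176a and Tmem176b, 941 NK cells (93.1%) had none, 64 had 1 and 6 had 2 or more, whereas 928 T cells (18.3%) had 2 or more. Il7r, the IL-7 receptor, was found in 1.48% of NK and 40.7% of T cells, and Cxcr6 in 0.396% and 30.2%. Pdcd1 (PD-1) was found in 0 of 1011 NK cells, which allows a share of cells with a UMI of up to 0.297% (counting error only, and no limit on cells that express the gene), and in 15.2% of T cells.

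NK cells were then set against T cells of the same mouse, as a description without a test, since the labels were drawn from these same counts. Of 1719 genes with at least 50 CPM in NK cells of every mouse, 107 (6.22%) stood at least 2-fold higher in NK than in T cells in all 8 mice. Of 1706 genes with that level in T cells, 61 (3.58%) stood at least 2-fold lower. The ratios are on the log2(CPM + 1) scale, which understates them for genes near 0 in T cells.

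Receptors and granule proteins led the higher genes. Klra4 (Ly49D), an activating receptor, stood at 891 to 1506 CPM in NK cells and 0 to 5.37 in T cells, a median log2 ratio of 9.96. Klra8 (Ly49H), the activating receptor for a cytomegalovirus protein, had a ratio of 9.40, and Cma1, a chymase, one of 8.89. Next came Tyrobp at 7.91, Gzma at 7.70 and Ncr1 at 7.20. Khdc1a (6.91), Fcer1g (6.62), the adaptor Scimp (6.53), the transcription factor Irf8 (6.48), the lectin-like receptors Klri2 (6.31) and Klrb1a (6.17), the integrin Itgam (5.92), the egress receptor S1pr5 (5.68) and the adaptor Lat2 (5.48) completed the 15 highest.

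Among the genes lowest in NK cells were the interferon-stimulated gene Ifi27l2a (median log2 ratio -8.43), the CD8 β chain Cd8b1 (-8.14), Dapl1 (-7.77), the lymph node homing receptor Ccr7 (-7.62), the T cell surface proteins Cd6 (-7.14) and Cd5 (-6.95), Ass1 (-6.99), Cd3g (-6.89), Rgs10 (-6.83) and Cxcr6 (-6.75). Groups differed in how evenly they were shared. Of 20 cytotoxic effectors, 6 stood at least 2-fold higher in NK cells of every mouse, among them Prf1 at 1186 to 1663 CPM against 26.7 to 144 in T cells. Of 22 activating receptors and adaptors 14 did, whereas no cytokine or chemokine gene of 13 did so in all 8 mice. The count needs 50 CPM in NK cells of every mouse, so not every listed gene could enter it. That level was held in NK or in T cells by 12 of the cytotoxic, 17 of the activating and 7 of the cytokine and chemokine genes. Ribosomal protein genes were lower in NK cells, with a median log2 ratio of -0.87, as were the genes of the mitochondrial genome (-1.05).

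NK cells differed in which Ly49 genes had a UMI. The 8 Klra genes described here lie in 1 cluster, chr6:129898996-130386874 (GRCm38). Klra8 had a UMI in 56.6% of NK cells, Klra4 in 48.6%, the inhibitory receptor genes Klra9 in 48%, Klra7 in 41.8% and Klra3 in 29.8%, and Klra1 in 10.7%, while Klra6 (2.47%) and Klra5 (1.48%) were rare. Klra10, Klra2 and Klra17, with a UMI in 5, 1 and 0 NK cells, were left out of the counts per cell. These genes are near-identical in part, so the counting could assign reads of one to another.

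The mean NK cell had a UMI of 2.39 of the 8 genes, 5.34% had none and the most was 6, against a mean of 0.0962 genes in T cells. The mean was 2.4, 2.5, 2.6, 2.16 and 2.79 genes in the B6→B6 mice against 2.38, 2.13 and 2.70 in the HLA→B6 mice, so the groups overlapped. Klra8 was found in 68.0% of cells with Klra4 and in 45.8% of cells without it, at median depths of 1476 and 1498 UMIs. For Klra3 and Klra9 the shares were nearly level: Klra9 was found in 45.8% of cells with Klra3 and in 48.9% of those without. The NKG2 genes Klrc1 and Klrc2 leaned apart, with Klrc2 in 51.4% of cells with Klrc1 and in 65.4% of the others. Cells are not replicates, and these shares are descriptions of the cells pooled over mice.

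**Figure D2:**
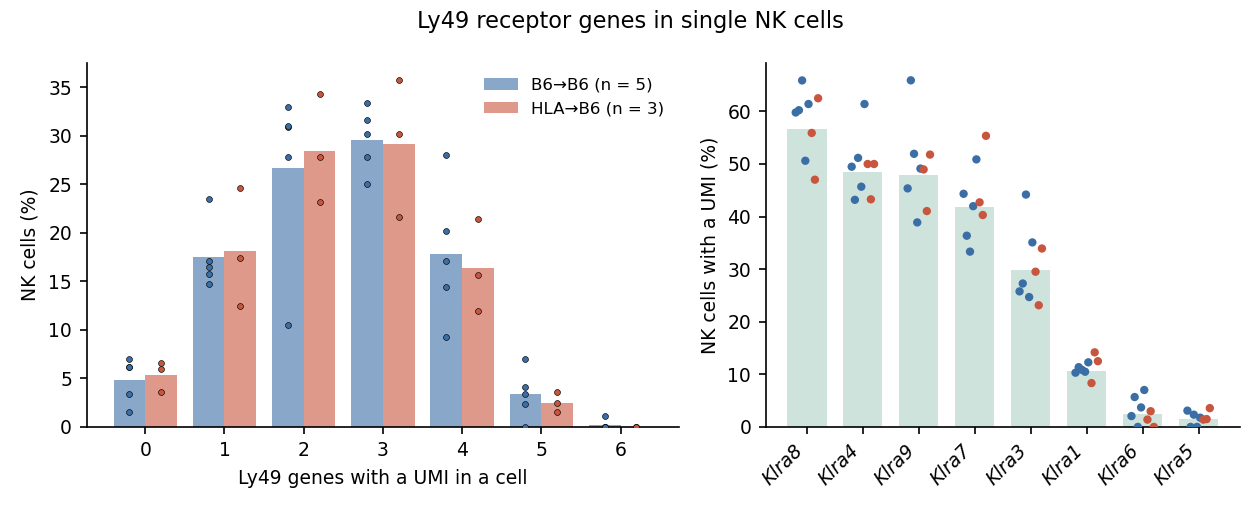
Left, percent of the NK cells of each mouse (points; bars, group means) by the number of Ly49 (Klra) genes with a UMI. Right, percent of all 1011 NK cells with a UMI of each Klra gene (bars), with each mouse as a point (blue B6→B6, red HLA→B6). Most cells carried 1 to 4 of the genes, and the points of the 2 groups lie among each other.

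The NK share of a graft averaged 6.52% ± 2.34 (SD, n = 5) in B6→B6 and 4.32% ± 0.222 (n = 3) in HLA→B6 mice, a difference that did not exceed the spread between mice. NK cells made up 10.2%, 6.52%, 5.30%, 3.95% and 6.57% of the cells in the B6→B6 mice against 4.40%, 4.07% and 4.49% in the HLA→B6 mice. The 3 HLA→B6 values lay between the lowest and the next B6→B6 value (exact permutation test over 56 splits of the mice, two-sided, p = 0.143). Of NK and T cells together, NK cells were 35.1%, 20.5%, 23.2%, 9.93% and 27.9% against 20.1%, 10.6% and 19.5%, with means of 23.4% ± 9.33 (SD, n = 5) and 16.7% ± 5.31 (n = 3) and an exact permutation p of 0.286. The lowest values came from B6→B6 replicate 4 and HLA→B6 replicate 2. The size of both differences depended on single mice. The difference in the share of all cells (-2.19 percentage points) was -1.26 when B6→B6 replicate 1 was left out and was -2.83 when replicate 4 of that group, whose T cells carried Rag1, was left out. The difference in the share of NK and T cells (-6.63) was -3.56 when HLA→B6 replicate 2 was left out, and -3.68 or -9.98 when replicate 1 or replicate 4 of B6→B6 was. Counting only NK cells with no UMI of a T cell receptor gene, it was -3.54. Without B6→B6 replicate 4 each had an exact permutation p of 0.0571, the smallest that 4 mice against 3 allow.

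Depth per NK cell gave no separation. The median was 1458, 1560, 1585, 1459.5 and 1783 UMIs in the B6→B6 mice against 1345.5, 1476.5 and 1981 in the HLA→B6 mice (exact permutation p = 0.857), and at 1000 UMIs an NK cell held 599 ± 13.1 genes (SD, n = 5) and 597 ± 6.56 genes (n = 3).

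**Figure D3:**
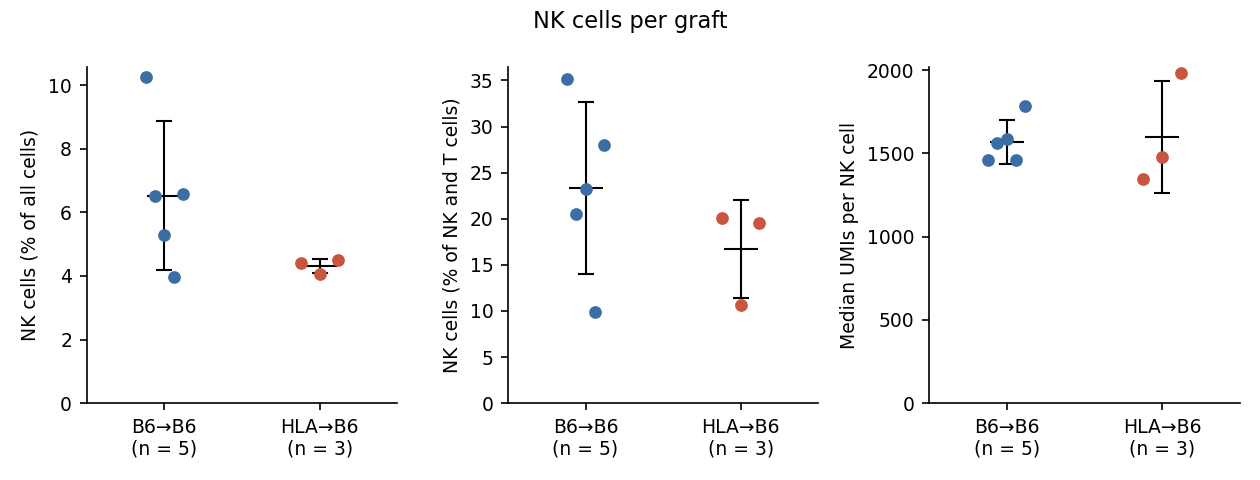
NK cells as a percent of all cells, as a percent of NK and T cells, and median UMIs per NK cell, 1 point per mouse with group mean and SD. The HLA→B6 points (4.07% to 4.49% of all cells) fall inside the B6→B6 range of 3.95% to 10.2%.

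The main comparison asked which genes NK cells of HLA→B6 grafts held at another level than NK cells of B6→B6 grafts. None of the 2987 genes tested passed an adjusted p of 0.05 (edgeR quasi-likelihood test, 0.00% called; DESeq2 also called 0). At an unadjusted p under 0.05 there were 97 genes (3.25%), 49 higher (1.64%) and 48 lower (1.61%) in HLA→B6, and 47 genes with DESeq2. The values of the groups did not overlap in 40 genes that were higher (1.34%) and 44 that were lower (1.47%). The median log2 difference over all genes was -0.00077, and 99.4% of genes lay within 1 of 0. For 2229 genes (74.6%) the whole 95% interval lay within a 2-fold change in either direction. The coefficient of variation between mice beyond counting error was 18.3% in NK cells and 24.7% in T cells.

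Perforin and the granzymes overlapped between the groups. Prf1 was at 1663, 1433, 1474, 1186 and 1197 CPM in the B6→B6 mice and 1377, 1322 and 1311 in the HLA→B6 mice, with the HLA→B6 values inside the B6→B6 range (log2 difference -0.028, 95% interval -0.33 to 0.27). Gzma was at 12310.3, 15401, 14741, 13381 and 12552 CPM against 14805, 11623 and 13258, also overlapping (-0.023, -0.27 to 0.23). Gzmb, the granzyme that starts apoptosis, was at 1397, 1099, 1321, 1315 and 1497 CPM against 1608, 1429 and 1409 (0.19, -0.11 to 0.49), where HLA→B6 replicate 1 was the highest of the 8 mice. Of 16 tested cytotoxic effectors 8 were higher and 8 lower, none at an unadjusted p under 0.05, with a median of 0.0069 and estimates from -0.51 to 0.49. Their 95% intervals reached up to 0.86 to either side. In Unc13d, which primes granules for release, the groups did not overlap (55.7 to 82.8 CPM in B6→B6 and 43.9 to 53.9 in HLA→B6 mice). Cathepsin W (Ctsw), a protease of killer cell granules, was at 799.9, 953, 872, 685 and 917 CPM against 732, 551 and 691 (-0.33, -0.67 to 0.014).

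Activating receptors gave the same picture. Ncr1 was at 1111, 1210.4, 1134, 836 and 1159 CPM against 1152, 795 and 1014 (log2 difference -0.11, 95% interval -0.44 to 0.23), with HLA→B6 replicate 2 and B6→B6 replicate 4 the lowest of all mice. Klrk1 was at 1721, 1725, 1604, 1124 and 2192 CPM against 1859.8, 1780.3 and 1840.2 (0.16, -0.18 to 0.51), and its HLA→B6 values lay inside the B6→B6 range. Klrb1f, which encodes an NKR-P1 receptor, did not overlap between the groups, at 152 to 271 CPM in B6→B6 and 288 to 323 in HLA→B6 mice (0.50, 0.061 to 0.93; edgeR adjusted p = 0.998), and was the only one of 18 tested activating receptors and adaptors at an unadjusted p under 0.05. Their median was 0.019, with 10 higher and 8 lower.

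Of 8 tested inhibitory receptors 7 had a higher estimate in HLA→B6, with a median of 0.10 and 1 at an unadjusted p under 0.05. That 1 was Klrb1b (NKR-P1B), whose ligand Clr-b is carried by most cells: it was at 114, 97.4, 153, 93.4 and 96.6 CPM in the B6→B6 mice and 195, 146 and 189 in the HLA→B6 mice. HLA→B6 replicates 1 and 3 were above all B6→B6 mice and replicate 2 was below B6→B6 replicate 3 (0.67, 95% interval 0.20 to 1.14; edgeR adjusted p = 0.998). The receptors for MHC class I overlapped, with log2 differences of 0.097 for Klrd1, 0.11 for Klrc1, 0.23 for Klra7 and 0.11 for Klra9. The direction of the list did not hold among the 391 NK cells (197 B6→B6, 194 HLA→B6) with no UMI of a T cell receptor gene, where 2 of the 8 were higher and the median was -0.066, with Klrc1 at -0.34.

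**Figure D4:**
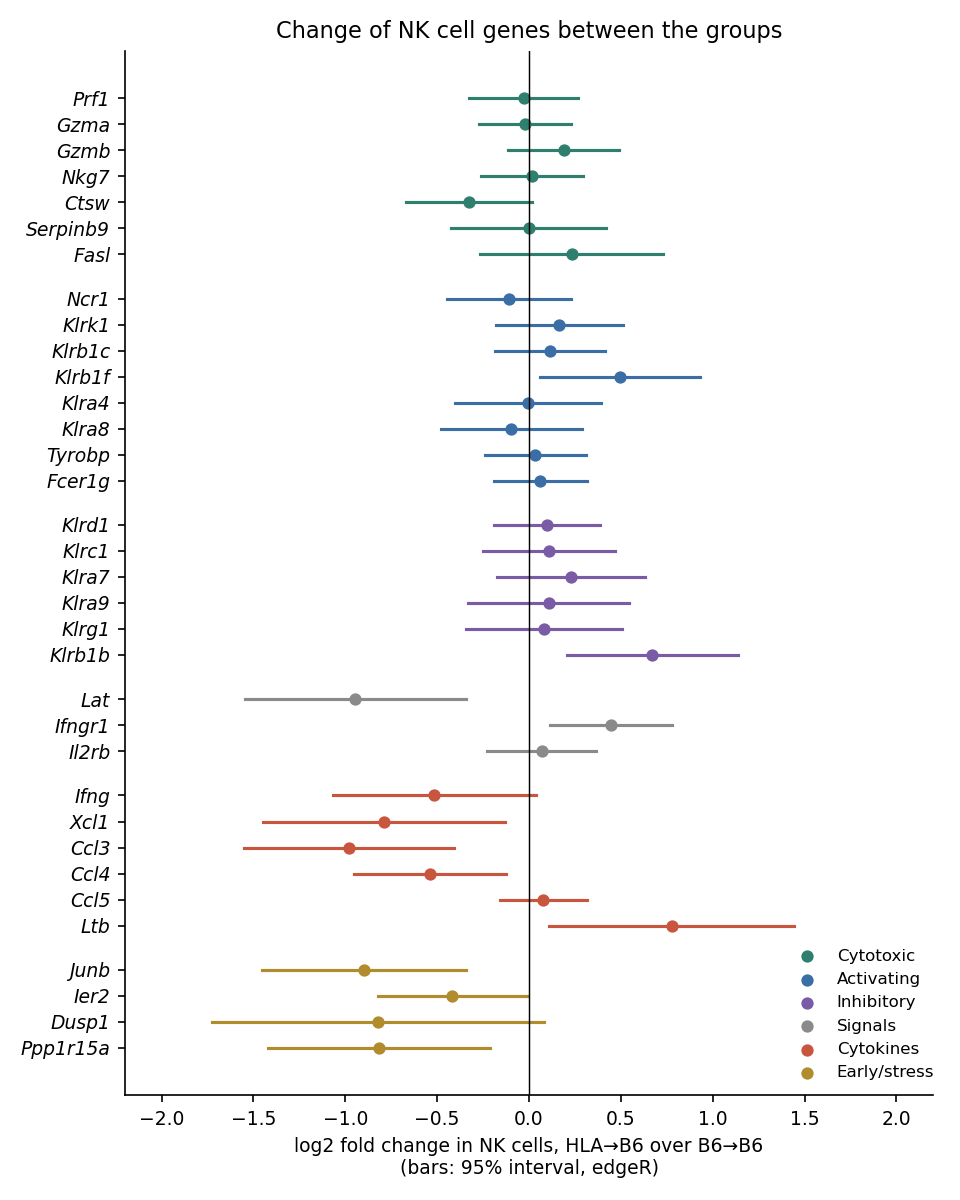
Log2 fold change of 34 NK cell genes between HLA→B6 (n = 3) and B6→B6 (n = 5) mice, with 95% intervals from edgeR, coloured by gene group. Intervals of cytotoxic and receptor genes mostly straddle 0. Genes such as Lat, Ccl3, Ccl4, Xcl1, Junb and Ppp1r15a lie left of it and Klrb1b, Klrb1f, Ifngr1 and Ltb right of it, none past an adjusted p of 0.05.

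The chemokine genes held most of the lower values among secreted factors. Ccl3 (chr11:83647844-83649355) was at 489, 988, 349, 591 and 425 CPM in the B6→B6 mice and 278, 249 and 332 in the HLA→B6 mice, with the highest HLA→B6 value under the lowest B6→B6 value (log2 difference -0.98, 95% interval -1.55 to -0.41; edgeR adjusted p = 0.998). In B6→B6 replicate 2 a single cell held 96 of 142 Ccl3 UMIs, and without the highest cell of each mouse the values were 434, 324, 246, 513 and 364 CPM against 213, 220 and 258, which overlap. Ccl4 (chr11:83662584-83664683), the neighbouring gene and a related chemokine, was at 1269.8, 1586, 872, 1606 and 1265 CPM against 1071, 834 and 763, where HLA→B6 replicate 1 exceeded B6→B6 replicate 3 (-0.54, -0.95 to -0.13). A single cell held 121 of 228 Ccl4 UMIs in B6→B6 replicate 2 and another 113 of 439 in HLA→B6 replicate 1, and without the highest cell of each mouse the values were 1171, 754, 699, 1465 and 1061 CPM against 798, 746 and 643. Among NK cells with no UMI of a T cell receptor gene the log2 difference was -0.61 for Ccl3 and -0.21 for Ccl4. Both were found together: 62.4% of NK cells with Ccl3 had Ccl4, and 34.4% of those without.

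Ccl5, by far the most abundant of them, was level at 26418 to 33777 CPM in B6→B6 and 29164 to 33886 in HLA→B6 mice (0.078, -0.16 to 0.31). Xcl1, which attracts cross-presenting dendritic cells, varied among B6→B6 mice from 209 to 730.1 CPM and lay at 312, 229 and 197 in HLA→B6 mice (-0.79, -1.45 to -0.13). Ifng was at 197, 139, 131, 117 and 96.6 CPM against 80.5, 87.8 and 135, with HLA→B6 replicate 3 among the B6→B6 values (-0.51, -1.07 to 0.036). Its estimate was -0.32 without HLA→B6 replicate 1 and turned to 0.30 among NK cells with no UMI of a T cell receptor gene. Lymphotoxin β (Ltb) leaned the other way, at 133, 69.6, 78.5, 35 and 154 CPM against 134, 151 and 162 (0.78, 0.11 to 1.44). Of 8 tested cytokine and chemokine genes, 3 were lower and 1 higher at an unadjusted p under 0.05, with a median of -0.22. Tnf, Csf2 and Il10 were too low to test.

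Among genes that carry receptor signals, the adaptor Lat was at 114, 167, 122, 198 and 86.9 CPM in the B6→B6 mice and 70.8, 78 and 71.8 in the HLA→B6 mice, with the groups apart (log2 difference -0.95, 95% interval -1.55 to -0.35; edgeR adjusted p = 0.998). In T cells, where Lat couples the T cell receptor, it was at 532 to 1122 CPM, and T cell markers summed to 667 to 1280.0 CPM in NK cells of B6→B6 and 727 to 868 in those of HLA→B6 mice. The estimate for Lat lay between -1.05 and -0.72 in 20 settings, among them one without the NK cells that held a Cd3 or Trac UMI. Lat was not among the genes tested in NK cells with no UMI of any T cell receptor gene. The part of T cell RNA in its values was not tested. Lat2, its counterpart in NK and myeloid cells, had a log2 difference of 0.20 (-0.21 to 0.62). Over 12 tested signalling genes the median was -0.15.

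The IFN-γ receptor chain Ifngr1 was at 1136, 1120.0, 1208, 789.6 and 1072 CPM against 1418, 1683 and 1140.0, with 2 of 3 HLA→B6 mice above all others (0.44, 0.11 to 0.78; edgeR adjusted p = 0.998). Of 14 tested cytokine receptors and JAK-STAT members it was the 1 gene at an unadjusted p under 0.05. Il2rb, the IL-2 and IL-15 receptor β chain on which NK survival depends, was level (0.069, -0.23 to 0.37), as was Stat4 (-0.00025, -0.42 to 0.42).

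The transcription factors and maturation genes of NK cells overlapped for the most part. Tbx21 (T-bet), which drives terminal maturation, was at 235, 278, 218, 194 and 222 CPM in B6→B6 and 183, 166 and 153 in HLA→B6 mice, with the groups apart by a small gap (log2 difference -0.40, 95% interval -0.80 to 0.0023). Eomes was at 305, 292, 239.8, 179 and 319 CPM against 198, 263 and 305, fully overlapping (-0.051, -0.51 to 0.40). Klf2, a factor that keeps lymphocytes circulating, was at 2641, 2706, 2398, 1992 and 2414 CPM against 1789, 1629 and 2163 (-0.36, -0.66 to -0.058), with HLA→B6 replicate 3 above B6→B6 replicate 4.

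Over 13 tested NK transcription factors the median was -0.056, over 9 genes of late maturation -0.14 and over 8 genes of early maturation 0.13. At an unadjusted p under 0.05, 1 gene was lower in each list and 1 higher among the early genes. The lists share members, so these are not separate results. Klf2 was the lower gene of both the transcription factor and the late list. Xcl1 (lower) and Ltb (higher), those of the early list, were already counted among the cytokine and chemokine genes. Itgam (CD11b), a late marker, was at 88.9 to 154 CPM in B6→B6 and 73.2 to 126 in HLA→B6 mice, and Cd27, an early one, at 105 to 174 and 108 to 190.2. The 16 tested genes of trafficking and adhesion had a median of -0.0083 and none at an unadjusted p under 0.05.

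Genes of MHC class I presentation did not separate the NK cells of the 2 groups. Of 14 tested, 7 were higher and 7 lower, with a median of 0.0014 and a highest value of 0.34, and B2m had a log2 difference of -0.0096 (-0.25 to 0.23). In T cells all 16 tested genes of that list had a higher estimate in HLA→B6, with a median of 0.35, but none passed. For type I interferon-stimulated genes only 3 of 27 reached a testable level in NK cells (median 0.23), against 16 in T cells (median 0.70, all higher, none passing). For the IFN-γ response the medians were 0.18 over 5 genes in NK cells and 0.56 over 16 in T cells.

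Immediate early and stress genes, which respond within minutes and also to tissue dissociation, had the lowest median of the lists with more than 3 tested genes, -0.43 over 15 genes, with 13 lower and 6 of those at an unadjusted p under 0.05. Junb was at 1797, 2156, 1495, 2451 and 801 CPM in the B6→B6 mice and 761, 1229 and 789.9 in the HLA→B6 mice. B6→B6 replicate 5 lay inside the HLA→B6 range (-0.90, 95% interval -1.45 to -0.34; edgeR adjusted p = 0.998). The T cells gave a median of -0.62 over 18 genes of the list. Transcripts of the mitochondrial genome leaned up in NK cells (median 0.57 over 12 genes, 3 higher at an unadjusted p under 0.05). They summed to 3282, 7575, 4159, 11405 and 10109.5 CPM in B6→B6 and 10705, 10911 and 13635 in HLA→B6 mice. The lowest values, 3282, 4159 and 7575 CPM, were those of the B6→B6 mice in the set linked by shared barcodes. HLA→B6 replicate 2, also in that set, was at 10911. The part of the linked set in this lean was not tested. The part of tissue handling, for which no value per mouse was at hand, was not tested.

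The gene with the smallest p was Ighm, the IgM heavy chain of B cells, with a log2 difference of 2.70 (95% interval 1.71 to 3.70; edgeR adjusted p = 0.0532). It was at 38.1, 6.96, 105, 38.9 and 0 CPM in the B6→B6 mice and 471, 219 and 98.7 in the HLA→B6 mice. A single cell held 165 of the 193 UMIs in HLA→B6 replicate 1. In all cells together Ighm was at 596, 1941, 1314, 673 and 1383 CPM against 4722, 2795 and 1444. Markers of some other cells moved with the groups in the same NK cells. MHC class II genes summed to 0 to 70.0 CPM in B6→B6 and 108 to 642 in HLA→B6 mice, without overlap. In HLA→B6 replicate 3, however, no NK cell had a UMI of H2-Aa, H2-Ab1, H2-Eb1 or Cd74. Its sum came from H2-DMa and H2-DMb1, with a UMI in 12.5% and 5.36% of its NK cells. In HLA→B6 replicate 1, 9 NK cells held all 148 Cd74 UMIs, 56 of them in 1 cell. B cell markers summed to 38.1 to 109.0 and 126 to 532. Ighm is itself 1 of these 7 genes, and without it the sums overlap. Monocyte markers summed to 86.9 to 245 and 295 to 574, without overlap, while Fn1 was at 0 in every NK cell. Mast cell and basophil markers summed to 0 to 3.89 and 4.88 to 14.6, which are too few counts to compare. In HLA→B6 replicates 2 and 3 these sums were 4.88 and 8.98 CPM, where 3 UMIs amount to 14.6 and 26.9 CPM. Sums of endothelial markers (20.9 to 226 and 87.8 to 151) overlapped, as did those of epithelial, neutrophil, fibroblast and platelet markers. Alveolar macrophage markers overlapped too (1313 to 1593 and 1317 to 1381), but their sum is no measure of macrophage RNA. It includes Ctsd, which had a UMI in 83.0% of NK and 44.4% of T cells. Chil3, Ear1 and Ear2 were each found in at most 1.29% of NK cells, and Siglecf and Fabp4 in none. Erythrocyte markers reached 2522 CPM in HLA→B6 replicate 2, where 84 Hba-a2 UMIs lay in 1 cell. The part of foreign RNA in these values was not tested.

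After Ighm, the smallest p among higher genes belonged to the cholesterol carrier Npc2 (164 to 233 CPM in B6→B6, 281 to 376 in HLA→B6; log2 difference 0.64), Mthfsl (1.29), Cenpx (0.65), Slfn2 (0.76), Ube2r2 (0.84), Klrb1b, the protease inhibitor Cst3 (0.95), the lysosomal protease Ctsb (1.18) and AW112010 (0.37). Npc2, Mthfsl, Cenpx and Slfn2 did not overlap between the groups. Cst3 is itself 1 of the 6 monocyte markers. On the lower side, after Ccl3, Junb and Lat, came Zmiz1 (78.5 to 127 and 53.7 to 71.8 CPM; -0.85), the stress gene Ppp1r15a (77.2 to 118 and 35.9 to 58.5 CPM; -0.82), Hnrnpl (-0.62), Samm50 (-0.80), Ccl4, Tuba1c (-0.89) and Sde2 (-1.22). None of these genes passed the adjusted threshold.

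The last comparison asked whether the HLA→B6 against B6→B6 difference was itself another in NK than in T cells, in 1 fit over both types with the mouse as a block. T cells alone gave 5 genes of 7164 past the threshold (0.0698%), all higher in HLA→B6: Nrn1, Litaf, Rgs16 and the inhibitory receptors Pdcd1 (22.8, 51, 57.5, 11.9 and 13.4 CPM against 331, 369 and 123) and Lag3 (22.8, 7.85, 52.1, 12.4 and 5.37 CPM against 192, 458 and 110.2). In NK cells Pdcd1 was at 0 and Lag3 at most at 18.0 CPM. The difference of the differences passed for 17 of 5660 genes (0.300%; 341 genes, 6.02%, at an unadjusted p under 0.05), with 11 more negative (0.194%) and 6 more positive (0.106%) in NK cells.

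Chemokine and cytokine genes led those more negative in NK cells. In T cells Ccl3 was at 2.85, 9.16, 24.9, 9.4 and 0 CPM in the B6→B6 mice and 60.7, 269.8 and 21.2 in the HLA→B6 mice, so that HLA→B6 replicate 2 stood far above the others and replicate 3 among the B6→B6 values. T cells with a Ccl3 UMI numbered 1 of 179, 6 of 341, 8 of 426, 19 of 1470 and 0 of 147 in B6→B6 and 50 of 1147, 120 of 1130 and 7 of 231 in HLA→B6 mice. Set beside the lower NK values given above, the log2 difference between the types was -4.09 (95% interval -5.41 to -2.77; edgeR adjusted p = 0.00292).

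Ccl4 followed, at 74.2, 38, 87.8, 40.6 and 24.2 CPM in T cells of B6→B6 and 280.0, 683 and 82.7 in those of HLA→B6 mice, with a difference of -2.99 (-4.00 to -1.99; edgeR adjusted p = 0.00391). Ifng was at 42.8, 22.3, 19.5, 13.9 and 13.4 CPM against 41.7, 81.2 and 40.3 in T cells, where HLA→B6 replicate 2 was highest and the other 2 lay just below B6→B6 replicate 1 (difference -1.86, -2.62 to -1.09; edgeR adjusted p = 0.0248). The NK level stayed above the T level of the same mouse for Ccl3 and Ccl4 in all mice except HLA→B6 replicate 2 for Ccl3, where NK cells were at 249 and T cells at 269.8 CPM.

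A second set were the NK cell genes Cd244, Ctsw, Fcer1g and Stx11, picked from the genes past the interaction threshold. Because of that choice their levels in T cells are a description only. The SLAM family receptor Cd244 (2B4) was at 8.56, 2.62, 5.42, 3.46 and 0 CPM against 11.6, 20.4 and 29.7 in T cells and at 336, 271, 227, 226 and 203 against 212, 156 and 323 in NK cells (difference -2.39; edgeR adjusted p = 0.0162). Ctsw was at 159.7, 217, 201, 129 and 169 CPM against 265, 304 and 401 in T cells (difference -1.17; edgeR adjusted p = 0.0179), the adaptor Fcer1g at 42.8, 28.8, 34.7, 32.2 and 26.8 against 93, 62 and 76.3 (-1.15; 0.0343), and Stx11, a syntaxin of granule release, at 17.1, 11.8, 18.4, 8.41 and 10.7 against 42.3, 45 and 29.7 (-2.16; 0.0325).

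The serpin Serpina3g (-1.91; edgeR adjusted p = 0.00777), the adaptor Sh2d2a (-1.32; 0.0215), the calcium-binding protein Efhd2 (-1.05; 0.0343) and Trac (-2.70; 0.0343) completed the negative side. On the positive side stood Hba-a2 (9.71), Cd74 (9.12), Gsn (8.35), Sox4 (6.17), Ighm (2.06) and Lmo4 (1.74). Of these, Hba-a2 lay in 1 NK cell, Cd74 in 11 NK cells of 2 HLA→B6 mice, and Sox4 at 22.8, 0, 5.42, 624 and 0 CPM in T cells of the B6→B6 mice, so that its value rested on the mouse whose T cells carried Rag1. Without the highest cell of each gene in each mouse and type, an alternative chosen after the data were seen, 16 genes passed, among them Ccl3, Ccl4, Cd244, Ctsw, Serpina3g, Fcer1g, Sh2d2a and Ifng, whereas Cd74, Gsn, Trac and Ighm did not.

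Ccl3 and Ccl4 passed in each of the 8 fits that left out 1 mouse, with differences of -4.91 to -2.97 and -3.47 to -2.22. Cd74 also passed in 8. Hba-a2 and Sox4 passed in each of the 6 fits that tested them, but both went untested once B6→B6 replicate 4 was dropped. T cells of that mouse held 441 UMIs of Hba-a2 and 1261 of Sox4. Hba-a2 also went untested once HLA→B6 replicate 2 was dropped, whose T cells held 327 UMIs and whose NK cells held 84. Sox4 also went untested once HLA→B6 replicate 1 was dropped. Whether either value holds with its main carrier mice removed was thus not tested. Serpina3g was lost without HLA→B6 replicate 2, and Ctsw without either this mouse or HLA→B6 replicate 3. Cd244 was lost when HLA→B6 replicate 2, HLA→B6 replicate 3 or B6→B6 replicate 2 was left out, and Sh2d2a when either of those HLA→B6 mice or B6→B6 replicate 3 was. Gsn passed in 5 fits (not without replicates 2 and 4 of B6→B6 and 1 of HLA→B6). Ifng passed in 4 (not without replicates 2 and 3 of B6→B6 and 1 and 2 of HLA→B6), as did Stx11 (not without replicates 2 and 4 of B6→B6 and 1 and 2 of HLA→B6). Efhd2 passed in 3, when B6→B6 replicate 1, 4 or 5 was left out, and Trac in 3, when B6→B6 replicate 3, 4 or 5 was. Fcer1g passed in 2 (B6→B6 replicate 1 or 4 left out), Lmo4 in 2 (B6→B6 replicate 4 or HLA→B6 replicate 1 left out) and Ighm in 1 (B6→B6 replicate 3 left out). With no mouse as a block none of the 17 passed (252 genes at an unadjusted p under 0.05; Ccl3 and Ccl4 at an edgeR adjusted p of 0.0627), and DESeq2 called 3 genes, Cd74, Ctsw and Serpina3g, but neither Ccl3 (adjusted p = 0.0998) nor Ccl4 (adjusted p = 0.0763). Without the NK cells that held a UMI of a T cell receptor gene, Ccl3 and Ccl4 passed and Ifng did not (difference -0.91; edgeR adjusted p = 0.945). The T cells were pooled over their subtypes, so a change in their make-up and a change per cell cannot be told apart here.

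**Figure D5:**
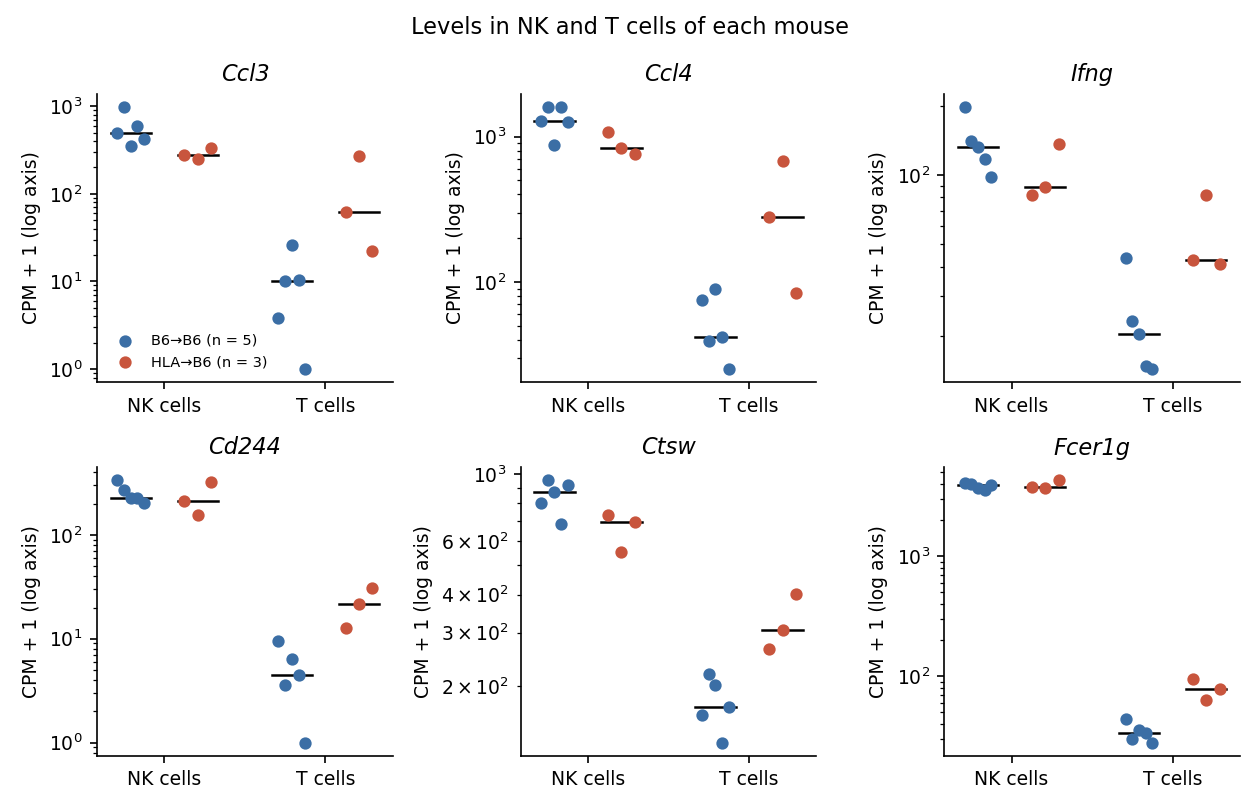
Level of 6 genes in NK and T cells of each mouse (points; lines, group medians), in CPM + 1 on a log axis that does not start at 0. For Ccl3, Ccl4 and Ifng the HLA→B6 median is below the B6→B6 median in NK cells and above it in T cells. For Cd244, Ctsw and Fcer1g the HLA→B6 median in T cells is above the B6→B6 median. All 6 were picked from the genes past the interaction threshold.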

How the data were processed

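The authors dissociated each graft, loaded 10000 cells for droplet sequencing of transcript 3′ ends, counted UMIs with Cell Ranger on mm10 (GRCm38) and named clusters with Seurat and a mouse cell atlas. The deposited values are whole UMI counts, 17921 genes in 20778 cells, without normalization, and whether they precede the removal of free RNA is not stated in the sources used. The authors left out barcodes under 200 UMIs and genes in fewer than 3 cells. Cells, counts and mice were joined by cell name, and cells labelled natural killer or T cell were summed per mouse.

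Sums were compared with edgeR 4.0.16 (quasi-likelihood F test, TMM, filterByExpr with a minimum count of 10, Benjamini-Hochberg adjusted p under 0.05, 95% intervals), with DESeq2 1.42.0 as an alternative, in R 4.3.3. The difference between types was the interaction in a fit with the mouse as a block. Numbers of cells and depths were compared by exact permutation tests (Python 3.11.15, scipy 1.17.1, numpy 2.4.6, pandas 2.3.3), whose smallest p is 0.0357. NK against T ratios used log2(CPM + 1). Shares of cells were thinned to 1000 UMIs by computing the mean share over random draws. Doublets were called with Scrublet (scanpy 1.11.5, expected rate 0.06; 258 cells, 1.24%, 3 of them NK) and kept in the main results. Intervals of shares that rest on 0 counts use 3 counts and cover counting error only. Figures used matplotlib 3.10.9. The edgeR steps were tested on simulated counts.

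Beyond the gene lists, the genes named were, in NK cells between the groups, the 10 with the smallest p in each direction since fewer than 5 passed, for the interaction those past the threshold (12 of them lay beyond the 5 smallest p and were picked with values in view), and against T cells the 15 highest and 10 lowest median ratios with at least 50 CPM. Nrn1, Litaf, Rgs16, Rag1 and Dntt were also named after their values were seen. The members and lists were chosen with earlier results of these data known. Of the gene names, 98.9% are in GENCODE vM21, from which coordinates were taken, and promoters came from RefSeq (GRCm38.p6). The list entries Cd244a, Il13, Il22 and Mx2 were not used here, and 0 columns of values were left unused. A result for 1 gene of the trafficking list is not reported here.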

Additional observations from a re-analysis of the deposited data

Results flagged for a closer look

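Of 57 sets of values of the 5 B6→B6 mice checked for a sample far from the rest, 2 had one, where chance gives about 1 in 20. Ncr1 was at 836 CPM in NK cells of B6→B6 replicate 4, below the other 4 mice of the group, and Klra7 at 772 CPM in NK cells of B6→B6 replicate 5, above them. In B6→B6 replicate 4, the mouse whose T cells carried Rag1, the share of NK cells with a UMI of Trac, Cd3d, Cd3e or Cd3g was also the highest (14.8%).

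For 17 genes the log2 difference between HLA→B6 and B6→B6 mice was not the same in NK and T cells (interaction in edgeR). It was more negative in NK cells for Ccl3 (-4.09), Ccl4 (-2.99), Trac (-2.70), Cd244 (-2.39), Stx11 (-2.16), Serpina3g (-1.91), Ifng (-1.86), Sh2d2a (-1.32), Ctsw (-1.17), Fcer1g (-1.15) and Efhd2 (-1.05). It was more positive for Hba-a2 (9.71), Cd74 (9.12), Gsn (8.35), Sox4 (6.17), Ighm (2.06) and Lmo4 (1.74). The 4 largest positive values belong to genes at 0 CPM in NK cells of at least 3 of the 5 B6→B6 mice, where the fitted size depends on the prior count and is not a measured fold.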

How the results depend on the processing

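The NK share of all cells and of NK and T cells was lower in HLA→B6 mice in every alternative run and never passed the threshold. The difference in median UMIs per NK cell (31.9) turned to -40.5 with the mean in place of the median and ran from -158 (without HLA→B6 replicate 3) to 159.7 without 1 mouse. The 0 genes called in NK cells became 38 with no filter on low counts, 1 without the cells that held a Cd3 or Trac UMI (Ighm), 1 without the immediate early genes (Ighm), and 0 to 4 without 1 mouse: HLA→B6 replicate 3 left out gave 4 (Cd74, Ighm, H2-Aa, H2-Eb1), HLA→B6 replicate 1 gave 1 (Lyz2) and B6→B6 replicate 3 gave 1 (Ighm). The 17 genes of the interaction became 3 with DESeq2, 0 with no mouse as a block, 50 with no filter, and 6 to 23 without 1 mouse: leaving out HLA→B6 replicate 2 gave 6, B6→B6 replicate 2 gave 8, HLA→B6 replicate 3 gave 10 and B6→B6 replicate 4 gave 23. The cause was not tested for these. With 56 to 288 NK cells per mouse, genes under about 10 UMIs per mouse could not be compared.

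Replicate numbers 1 to 3 occur in both groups, but the labels give them no shared origin. The deviations of same-numbered NK sums correlated at 0.0282, 0.0732 and -0.139 across genes, and no HLA→B6 mouse correlated best with its own number. The deposited cell names, unlike the sample labels, number the 3 HLA→B6 mice 2, 3 and 5. By those numbers the correlations were 0.0645, 0.076 and 0.137, the last 2 of them the best of their mouse, and since not all exceeded 0.1 no pairing was made. With the replicate number as a block, 8 genes were called in NK cells (Gm42418, AY036118, mt-Cytb, mt-Co3, Fth1, Junb, mt-Nd4 and mt-Atp6), and with it in place of the mouse 10 in the interaction. With the set of libraries linked by shared barcodes as a block, 0 genes were called in NK cells, and 151 had an unadjusted p under 0.05.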

Other observations

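The share of a graft's transcripts that came from NK cells differed by gene. Of all Gzma UMIs in a graft, NK cells held 92.1% ± 5.17 (SD, n = 5) in B6→B6 and 94.2% ± 3.29 (n = 3) in HLA→B6 mice. Of Prf1 UMIs they held 83.4% ± 3.14 and 67.5% ± 21.3, where HLA→B6 replicate 2 was at 42.9%. Of Ccl5 UMIs they held 57.2% ± 9.76 and 32.8% ± 17.4, and of Ccl3 UMIs 23.7% ± 5.41 and 13.9% ± 8.96, so that in every mouse most Ccl3 lay outside NK cells.

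Of the Ifng UMIs of NK and T cells together, NK cells held 67.4%, 54.1%, 62.5%, 51.7% and 66.7% in the B6→B6 mice against 29.5%, 8.61% and 44.1% in the HLA→B6 mice, without overlap. Of their Ccl3 UMIs NK cells held 98.7%, 95.3%, 77.7%, 88.9% and 100% against 49.8%, 7.43% and 78.7%, where HLA→B6 replicate 3 overlaps with B6→B6 replicate 3. Ifng was not alone in this: the shares of Nkg7, Ccl4, Ccl5 and Ncr1 did not overlap between the groups either. For the NK marker Ncr1 they were 96.4% to 100% in B6→B6 and 92.5% to 95.3% in HLA→B6 mice. The shares of Gzma, Gzmb, Prf1, Xcl1, Klrb1c, Fasl and Tnf overlapped. The counts behind a single Ifng share were between 15 and 209 UMIs. These shares also follow the numbers of NK and T cells in each graft and are given without a test.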
